A study of Mus musculus with 9 samples.

Results

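The replication-dependent histone genes were taken as every gene whose GENCODE M21 symbol begins with Hist1h, Hist2h, Hist3h or Hist4h. They numbered 70 of the 53379 genes in the count tables: 6 genes for the linker histone H1, 20 for H2A, 19 for H2B, 12 for H3 and 13 for H4, of which 3 (2 of H2A and 1 of H2B) are annotated as pseudogenes. RNA came from GFP-positive cells of the mouse forebrain (strain C57Bl6DBa2), labelled neural progenitor cells. Embryos were electroporated in utero on embryonic day E14.5 and the cells were sorted at E16.5, 2 days later. The GemC1 group received a plasmid for GemC1 and the Mcidas group a plasmid for Mcidas, both relatives of geminin in the nucleus that switch on genes of multiciliated cells. The GFP group is labelled with the reporter H2B-GFP. Each group held 3 libraries. The reporter is itself an H2B fusion. The sources used here do not give which H2B gene it carries, nor state separately for each group whether the reporter plasmid was in the mix. A count for an H2B gene may therefore hold reads of the reporter, and the level of the reporter itself was not analysed here.

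Histones of these families are made mainly in S phase, when new DNA has to be wrapped into nucleosomes. Each nucleosome core holds H2A, H2B, H3 and H4, and H1 binds the linker DNA between cores. Most of the mRNAs end in a conserved stem-loop in place of a poly(A) tail. The stem-loop is bound by the protein SLBP and the end is cut with the help of the U7 small nuclear ribonucleoprotein. Some of the genes also give polyadenylated mRNAs, for example in cells that leave the cycle. The libraries here were made with SMART-Seq v4, whose cDNA synthesis starts from the poly(A) tail, so the levels below are those of RNA that this chemistry captures.

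The stem-loops show the feature that marks the family. Of the 70 members, 46 had, in an annotated transcript, a stem of 6 base pairs around a loop of 4 bases with no mismatch. The search took only forms that start with GG and have T at the last base of the first stem arm and the first loop base. It also ended where the annotated transcripts end, which is at the stop codon in, for example, Hist1h1b and Hist2h2bb. A missing match does not show that a gene lacks a stem-loop. The sequences are those of the 4 forms discussed here, from GENCODE M21 transcripts (GRCm38), written as DNA with the stem in capitals.
Hist1h2bm, chr13:21722506-21722521, plus strand: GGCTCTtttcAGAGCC
Hist1h2bb, chr13:23747203-23747218, plus strand: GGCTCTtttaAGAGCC
Hist1h4d, chr13:23581950-23581965, plus strand: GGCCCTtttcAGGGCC
Hist1h4b, chr13:23757366-23757381, plus strand: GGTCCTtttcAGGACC
The form of Hist1h2bm was shared by 26 members (3 of H1, 10 of H2A, 8 of H2B and 5 of H3) and by no H4 member. The form of Hist1h2bb was found in 6 members. The form of Hist1h4d was found in 7 members, all of H4, and that of Hist1h4b in 2, also of H4.

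The coding sequences of H2B genes are close to each other, which bears on how reads can be assigned. The first 75 coding bases, the length of 1 read, are shown for 5 genes that carried most of the H2B counts or moved differently, from the same transcripts. Capitals mark bases that differ from Hist1h2bm, which had the highest mean level of all members.
Hist1h2bm, chr13:21722098-21722172, plus strand: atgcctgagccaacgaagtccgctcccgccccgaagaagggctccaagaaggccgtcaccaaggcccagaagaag
Hist1h2bb, chr13:23746795-23746869, plus strand: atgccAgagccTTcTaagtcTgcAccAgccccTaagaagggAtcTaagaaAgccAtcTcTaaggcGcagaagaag
Hist1h2bf, chr13:23574116-23574190, minus strand: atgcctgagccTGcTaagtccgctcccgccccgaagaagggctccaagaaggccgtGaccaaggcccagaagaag
Hist2h2be, chr3:96221166-96221240, plus strand: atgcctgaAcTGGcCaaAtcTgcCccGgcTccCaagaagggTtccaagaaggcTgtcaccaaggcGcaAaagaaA
Hist3h2ba, chr11:58948940-58949014, plus strand: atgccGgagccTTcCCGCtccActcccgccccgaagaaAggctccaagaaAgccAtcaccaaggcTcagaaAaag
Over all 381 coding bases, Hist1h2bf differed from Hist1h2bm at 11 positions, Hist1h2bb at 23, Hist3h2ba at 38, Hist2h2bb at 40 and Hist2h2be at 49. The share of windows of 75 bases that occurred at 1 annotated locus was 43.4% in Hist1h2bf, 63.4% in Hist1h2bb, 83.1% in Hist1h2bm, 86.1% in Hist3h2ba, 99.7% in Hist2h2bb, and every window of Hist2h2be did so. Reads from the other windows could have been split, lost or placed on another member, and the handling of such reads is not given in the sources used here.

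Total counts ran from 22914704 to 41163917 per library, and 3 counts, taken as the floor of detection, equalled 0.0736 to 0.130 CPM (counts scaled by TMM to a common library total). Gmnc, the gene of GemC1, stood at 223 to 317 CPM in the GemC1 libraries and at 0 to 0.26 CPM elsewhere. Mcidas stood at 387 to 596 CPM in the Mcidas libraries, 60.2 to 76.7 CPM in the GemC1 libraries and 0.646 to 0.689 CPM in the GFP libraries. The year in the file names of the Mcidas libraries differs from that of the other groups, so such a batch, if there was one, cannot be told apart from the effect of Mcidas. Of markers for the labelled progenitors, all 15 radial glia genes were tested and summed to 1695 to 2253 CPM in GFP. The 18 excitatory neuron genes summed to 8054 to 9401 CPM in the same libraries, so RNA of neurons was present beside that of progenitors.

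Members took 0.0605% to 0.144% of the counts of a library. The level was carried by few genes. A total of 49 members had a mean under 1 CPM over the 9 libraries, and 2 (Hist1h2br and Hist1h4m) had 0 counts in every library. The 11 members with a mean of at least 10 CPM held 95.2% of the members' CPM: Hist1h1c and Hist1h1e of H1, Hist3h2a of H2A, Hist1h4d of H4 and 7 H2B genes. Hist1h2bm, Hist3h2ba and Hist2h2be were highest, at 173, 172 and 161 CPM. Per kilobase of exon the order was Hist1h2bm (330 CPM per kb), Hist3h2ba (280), Hist1h2bb (268), Hist2h2bb (107), Hist1h2bf (91.1), Hist2h2be (61.4) and Hist3h2a (59.5). H2B genes as a class held 74.7% of the members' CPM, H2A genes 15.5%, H1 genes 4.83%, H4 genes 4.14% and H3 genes 0.811%, although the proteins of the core are present in equal amounts in a nucleosome. All 20 H2A members share exon bases with another annotated gene. How reads in shared bases were counted is not given in the sources used here, so the class shares may be affected by it. The H2B share may also hold reads of the H2B-GFP reporter, which was not tested.

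**Figure D1:**
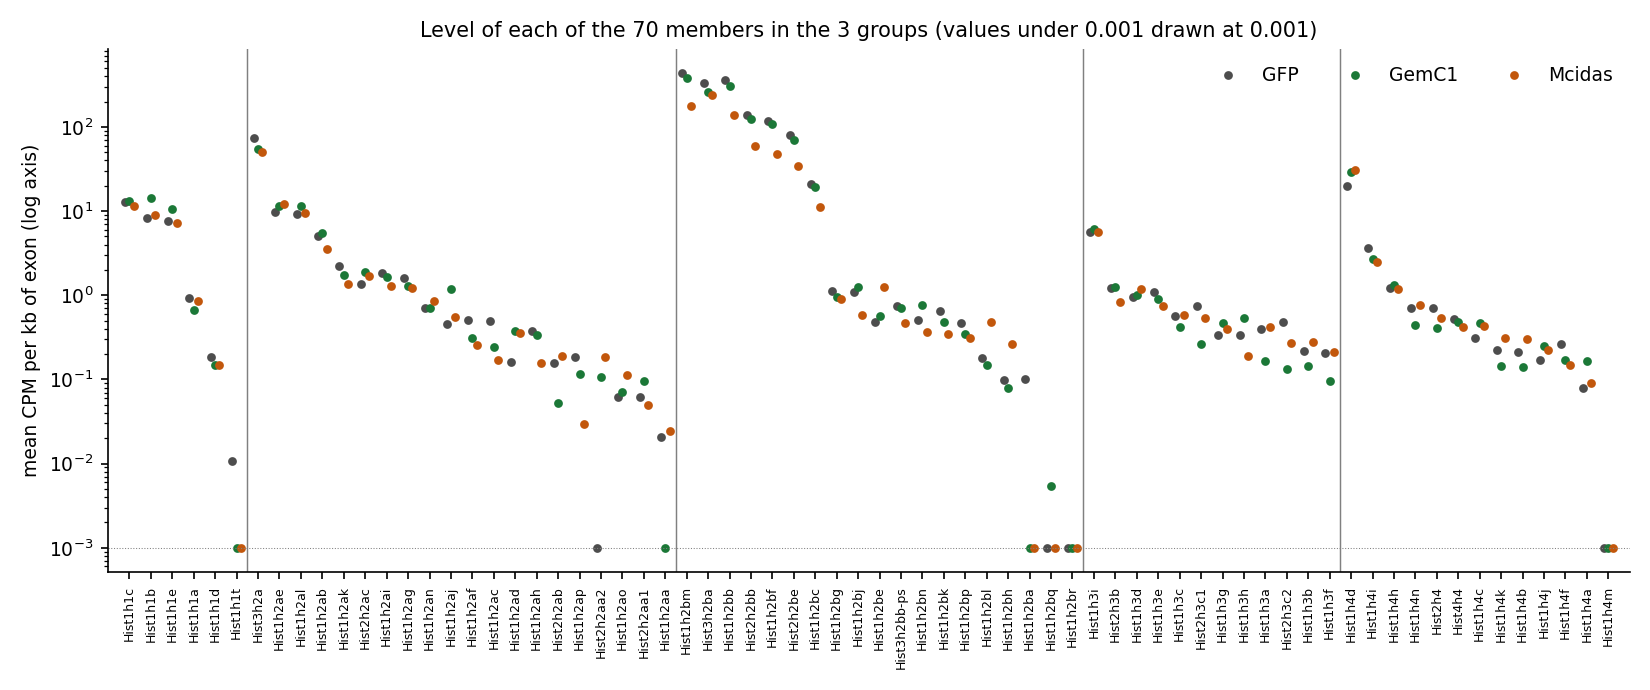
Mean CPM per kb of exon (log axis, 3 libraries per group) of each of the 70 members, ordered within H1, H2A, H2B, H3 and H4 from left to right and separated by grey lines; values under 0.001 are drawn at 0.001. Hist1h2bm, Hist3h2ba and Hist1h2bb of H2B are at the top, and 49 of the 70 members have a mean under 1 CPM.

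The leading members of H1, H3 and H4 stood below these H2B genes. Hist1h1c, a linker histone gene with 2 poly(A) hexamers after its stop codon, had 12.5 CPM per kb and Hist1h1b 10.5. For H2A, Hist1h2ae followed Hist3h2a at 11.1. Hist1h4d, which has an annotated transcript that runs 770 bases past the stem-loop, had 26.7 CPM per kb, and the next H4 gene, Hist1h4i, had 2.93. For H3, Hist1h3i reached 5.80 and Hist2h3b 1.11.

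A poly(A) hexamer in the annotated 3′ end separated the genes by level only in part. The search reached only as far as the annotated transcripts run. Among the 67 coding members, 22 had a poly(A) hexamer (AATAAA or ATTAAA) after the stop codon in an annotated transcript, and 11 of these had a mean of at least 1 CPM. Of the 45 without one, 9 did. Of the 11 members of at least 10 CPM, 6 had a hexamer (Hist1h1c, Hist3h2a, Hist1h2bc, Hist2h2be, Hist3h2ba and Hist1h4d). The other 5, namely Hist1h1e, Hist1h2bb, Hist1h2bf, Hist1h2bm and Hist2h2bb, had none. Members without an annotated hexamer held 43.8% of the members' CPM, and 4 of those 5 genes code for H2B. In those 4 the annotation runs 0 (Hist2h2bb), 66 (Hist1h2bb), 74 (Hist1h2bf) and 89 bases (Hist1h2bm) past the stop codon, against 1209 in Hist1h1e. With so few bases to search, a missing hexamer does not show that the RNA lacks a poly(A) tail.

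Many H2A and H2B genes lie head to head, and their levels differed within pairs. A total of 14 H2A and H2B pairs were on opposite strands with their starts pointing apart and at most 305 bases between them. Per kilobase, the H2A gene was higher in 8 pairs and the H2B gene in 6. In 8 of the 14 pairs neither gene passed 1.79 CPM per kb. Of the 6 pairs with a gene of at least 10 CPM per kb, the H2B gene was higher in 4. The counts of these 4 H2B genes may hold reads of the H2B-GFP reporter, which was not tested. Hist1h2bm stood at 330 CPM per kb and the pseudogene Hist1h2aj, 235 bases away, at 0.733. Hist1h2bf stood at 91.1 and Hist1h2ad at 0.299. Hist2h2be stood at 61.4 and Hist2h2ac at 1.65. Hist1h2bc stood at 17.1 and Hist1h2ac at 0.305. In the other two the H2A gene was higher, namely for Hist1h2ae, at 11.1 beside 0.987 for Hist1h2bg, and for Hist3h2a, at 59.5 beside 0.644 for the pseudogene Hist3h2bb-ps. Only 7.6% of the windows of Hist1h2aj were unique, so part of its reads may have been lost, while 80.5% were unique in Hist2h2ac and 90.3% in Hist1h2ac. Of the 26 members that share exon bases with another annotated gene, 20 are H2A genes, which is every H2A member. Hist2h2bb, whose bases are all shared, still had 11798 counts, beside 12433 in Gm20628 and 12330 in Gm42743. Reads in its shared bases were thus not simply lost. How such reads were counted in the H2A genes is not given in the sources used here. Their part in the differences within pairs was not tested.

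The bases before the start are shown for 3 of the H2B genes with the highest levels, 150 bases each, from RefSeq (GRCm38.p6). Capitals mark the octamer ATTTGCAT, CCAAT and TATAAA, each searched on both strands.
Hist1h2bm, chr13:21721894-21722043, plus strand: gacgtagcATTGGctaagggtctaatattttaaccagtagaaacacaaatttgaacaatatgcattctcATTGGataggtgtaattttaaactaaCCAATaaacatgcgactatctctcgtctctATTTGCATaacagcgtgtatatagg
Hist1h2bb, chr13:23746584-23746733, plus strand: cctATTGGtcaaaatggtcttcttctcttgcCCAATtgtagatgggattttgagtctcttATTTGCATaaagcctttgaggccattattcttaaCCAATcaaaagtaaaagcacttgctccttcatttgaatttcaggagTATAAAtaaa
Hist3h2ba, chr11:58948761-58948910, plus strand: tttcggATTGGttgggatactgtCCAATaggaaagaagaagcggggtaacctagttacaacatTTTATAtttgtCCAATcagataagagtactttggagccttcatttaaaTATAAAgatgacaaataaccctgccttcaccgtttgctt
A promoter of 300 bases was matched for 62 members, in 63 entries. The octamer, which binds POU factors such as Oct1, was in 7 of 17 entries of H2B genes (41.2%), in 7 of 18 of H2A genes (38.9%) and in none of H1, H3 or H4 genes, against 1.74% of all 32851 promoters. Entries of a head-to-head pair can overlap, so 1 octamer can count for both classes. For example, the entries of Hist1h2ae and Hist1h2bg overlap and both hold it. CCAAT was in all H1, H2A, H2B and H3 entries and in 25.0% of the H4 entries, against 37.4% of all promoters. TATAAA was in 55.6% of the members' entries against 13.6%. A match describes these letters and is not a binding site. The genes called lower in Mcidas, given below, include some with and some without the octamer. Hist1h2bm, Hist1h2bb and Hist2h2bb hold it and Hist1h2bf does not, and Hist3h2a holds it and Hist3h2ba does not. For Hist1h2be, which rose, 1 of the entries holds it. No entry was matched for Hist2h2be or Hist1h2bc, which were also lower. The entries of their head-to-head partners, Hist2h2ac and Hist1h2ac, cover the bases between the genes of each pair and hold the octamer. A relation between octamer and change was not tested.

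The first comparison asked how GemC1 changed the members relative to GFP. No member passed the test. Of 40 members tested, 0 were called higher or lower (edgeR quasi-likelihood test, Benjamini-Hochberg adjusted p under 0.05), against 5.18% of all 19572 genes tested, 3.86% higher and 1.32% lower. A total of 5 members had an unadjusted p under 0.05, and DESeq2 called 1 higher (Hist1h1b) and 1 lower (Hist3h2a). The shares of all genes with such a p or with a DESeq2 call are not given, here or below. The median log2 fold change of the members was -0.17, beside -4e-04 for all genes, and 24 of 40 were below 0. It was 0.05 without GFP replicate 1, the library with the highest H2B level.

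The linker histones Hist1h1b and Hist1h1e were nearest to a call upwards. Hist1h1b stood at 10.1, 10.0 and 12.2 CPM in GemC1 replicates 1 to 3, 8.23, 5.90 and 5.71 in Mcidas and 8.37, 5.30 and 4.61 in GFP. The 3 GemC1 libraries were above all others. The log2 fold change over GFP was 0.82 ± 0.24 (SE, adjusted p = 0.0743 by edgeR), and the call was made without GFP replicate 1 (1.12, adjusted p = 0.0233). Hist1h1e stood at 22.8, 19.97 and 18.0 CPM in GemC1 and at 15.2, 14.7 and 14.1 in GFP, also with no overlap, and its change was 0.47 ± 0.17 (adjusted p = 0.136). Hist1h1c differed by 0.04 ± 0.23, with overlapping groups. Over all H1 genes the sum was 53.2 ± 7.48 CPM (SD, n = 3) in GemC1, 40.2 ± 7.16 in Mcidas and 42.8 ± 7.74 in GFP, and the ranges of the groups overlapped.

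Among H3 genes, Hist2h3c1 and Hist2h3c2 had the most negative fold changes in GemC1, at low levels. Hist2h3c1 stood at 0.669, 0.575 and 0.197 CPM in GemC1 and at 1.76, 1.25 and 1.11 in GFP, a log2 fold change of -1.51 ± 0.56 (adjusted p = 0.154). Hist2h3c2 changed by -1.83 ± 0.91 (adjusted p = 0.293). Neither was called. All exon bases of Hist2h3c1 are also annotated to Gm20634, and 37.4% of the windows of Hist2h3c2 were unique.

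The second comparison asked the same of Mcidas. Of the 12 H2B genes tested, 7 fell and 1 rose. Of the 40 members tested, 8 were lower and 1 was higher in Mcidas (22.5%), against 4.35% of all genes called, 0.327% lower and 4.03% higher. The 8 were Hist1h2bb, Hist1h2bm, Hist1h2bf, Hist2h2bb, Hist2h2be, Hist1h2bc and Hist3h2ba of H2B, and Hist3h2a of H2A. The member that rose was Hist1h2be. The median log2 fold change of the members was -0.44, beside -0.03 for all genes, and 30 of 40 were below 0. By class it was -0.12 for H1, -0.45 for H2A, -0.91 for H2B, -0.47 for H3 and -0.18 for H4. The lower calls numbered 5 without Mcidas replicate 2 and 3 with no filter on low counts, where Hist1h2bb, Hist1h2bm, Hist1h2bf, Hist2h2bb and Hist2h2be were at adjusted p from 0.0731 to 0.113. The GemC1 and Mcidas comparisons share the 3 GFP libraries.

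**Figure D2:**
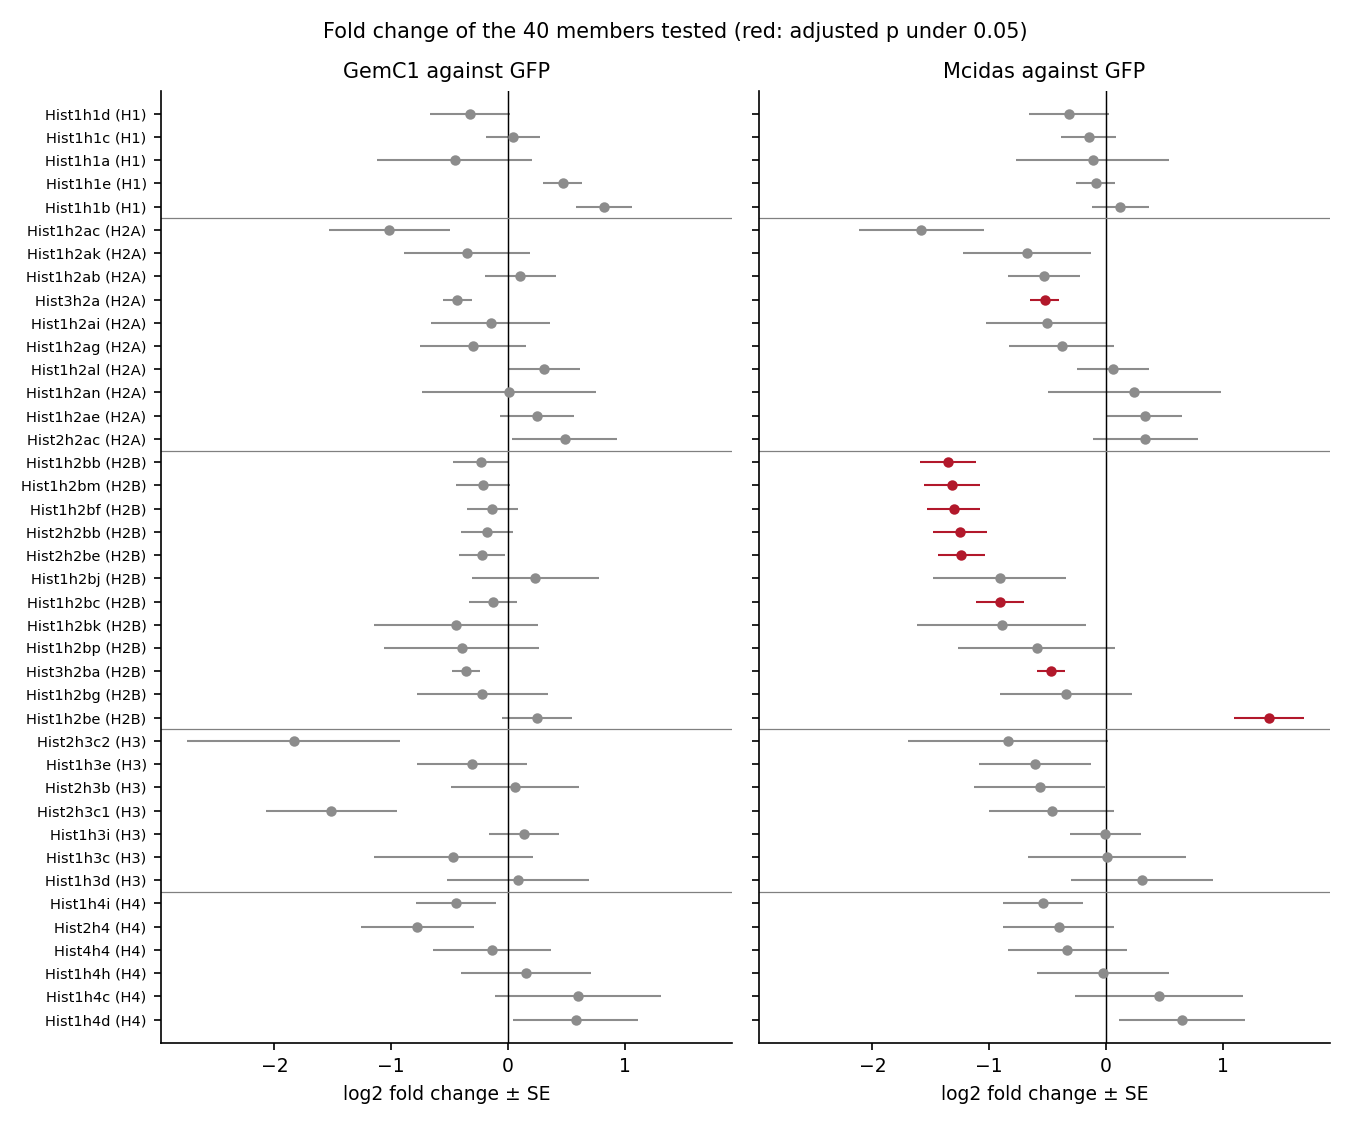
Log2 fold change ± SE (horizontal axis) of the 40 members tested, in GemC1 against GFP on the left and Mcidas against GFP on the right, grouped by class; red points have an adjusted p under 0.05. No point is red for GemC1, while 9 are red for Mcidas, 8 of them H2B genes.

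Hist1h2bm (ENSMUSG00000114279, chromosome 13 at 21722044 to 21722567, GRCm38) encodes H2B in the first block of the Hist1 cluster. It stood at 70.3, 90.6 and 115 CPM in Mcidas, 209, 150 and 234 in GemC1 and 311, 204 and 173 in GFP. All Mcidas libraries were below all others, and GemC1 and GFP overlapped. The log2 fold change was -1.32 ± 0.24 in Mcidas (adjusted p = 0.00703) and -0.22 ± 0.23 in GemC1 (adjusted p = 0.675).

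Hist1h2bb (ENSMUSG00000075031, chromosome 13 at 23746734 to 23747241) stood at 54.6, 70.2 and 89.5 CPM in Mcidas, 162, 122 and 182 in GemC1 and 251, 161 and 134 in GFP. The order of the groups was the same as for Hist1h2bm. It fell by 1.35 on the log2 scale in Mcidas (SE 0.24, adjusted p = 0.00651) and differed by -0.23 ± 0.24 in GemC1.

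Hist2h2be (ENSMUSG00000068854, chromosome 3 at 96221119 to 96223738), an H2B gene with 3 poly(A) hexamers after its stop codon, lies on another chromosome. It stood at 72.6, 94.0 and 103 CPM in Mcidas, 195, 148.5 and 200 in GemC1 and 284, 188 and 162 in GFP. Again only the Mcidas libraries stood apart. The change was -1.24 ± 0.20 in Mcidas (adjusted p = 0.00242) and -0.22 ± 0.20 in GemC1.

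Hist1h2bf and Hist2h2bb moved by similar amounts, -1.31 ± 0.23 and -1.25 ± 0.23 in Mcidas. Hist1h2bc, at 11.2, 12.5 and 15.1 CPM in Mcidas and 31.99, 21.3 and 19.4 in GFP, changed by -0.91 ± 0.21 (adjusted p = 0.0236). Its call was lost without Mcidas replicate 1, without Mcidas replicate 2 or without GFP replicate 1, at adjusted p of 0.0769, 0.111 and 0.127. Hist2h2bb overlaps exons of both Gm20628 and Gm42743, and all its bases are exons of the one or the other. These genes had totals of 12433 and 12330 counts beside 11798 for Hist2h2bb, and changed by -1.18 ± 0.22 and -1.20 ± 0.20 in Mcidas. The values of the 3 genes are therefore not separate measurements.

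Hist3h2ba and Hist3h2a, the H2B and H2A genes of the Hist3 cluster on chromosome 11, changed less. Hist3h2ba stood at 134, 151 and 162 CPM in Mcidas, 193, 146 and 145 in GemC1 and 201, 189 and 228 in GFP. The Mcidas libraries were below all GFP libraries and overlapped those of GemC1. The change was -0.47 ± 0.12 in Mcidas (adjusted p = 0.0448) and -0.36 ± 0.12 in GemC1 (adjusted p = 0.116). Its call in Mcidas was lost in 8 of 16 alternatives, among them each removal of a Mcidas or GFP library (adjusted p from 0.0694 to 0.225).

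Hist3h2a stood at 118, 109 and 101 CPM in Mcidas, 129, 118 and 103 in GemC1 and 142, 143 and 187 in GFP. Both treated groups were below all GFP libraries. The change was -0.53 ± 0.12 in Mcidas (adjusted p = 0.0236) and -0.43 ± 0.12 in GemC1 (adjusted p = 0.0601). The call in Mcidas was lost without Mcidas replicate 2, Mcidas replicate 3 or GFP replicate 3, at adjusted p of 0.102, 0.125 and 0.122. Hist3h2a overlaps Trim17 and Gm44313, sharing at most 708 of its 2146 exon bases with either of them. In Mcidas, Trim17 changed by -0.51 ± 0.13 and Gm44313 by -0.53 ± 0.14.

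Hist1h2be was the member that rose in Mcidas. It stood at 6.30, 5.63 and 4.76 CPM in Mcidas, 1.797, 2.30 and 3.45 in GemC1 and 1.65, 2.01 and 2.70 in GFP, so the Mcidas libraries were above all others. The log2 fold change was 1.39 ± 0.30 (adjusted p = 0.0152), and the call was lost without Mcidas replicate 2, GFP replicate 1 or GFP replicate 2 (adjusted p 0.0609, 0.0800 and 0.0747). Its annotated exons add up to 4446 bases and share 496 bases with Hist1h1e, which differed by -0.09 ± 0.17 in Mcidas.

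**Figure D3:**
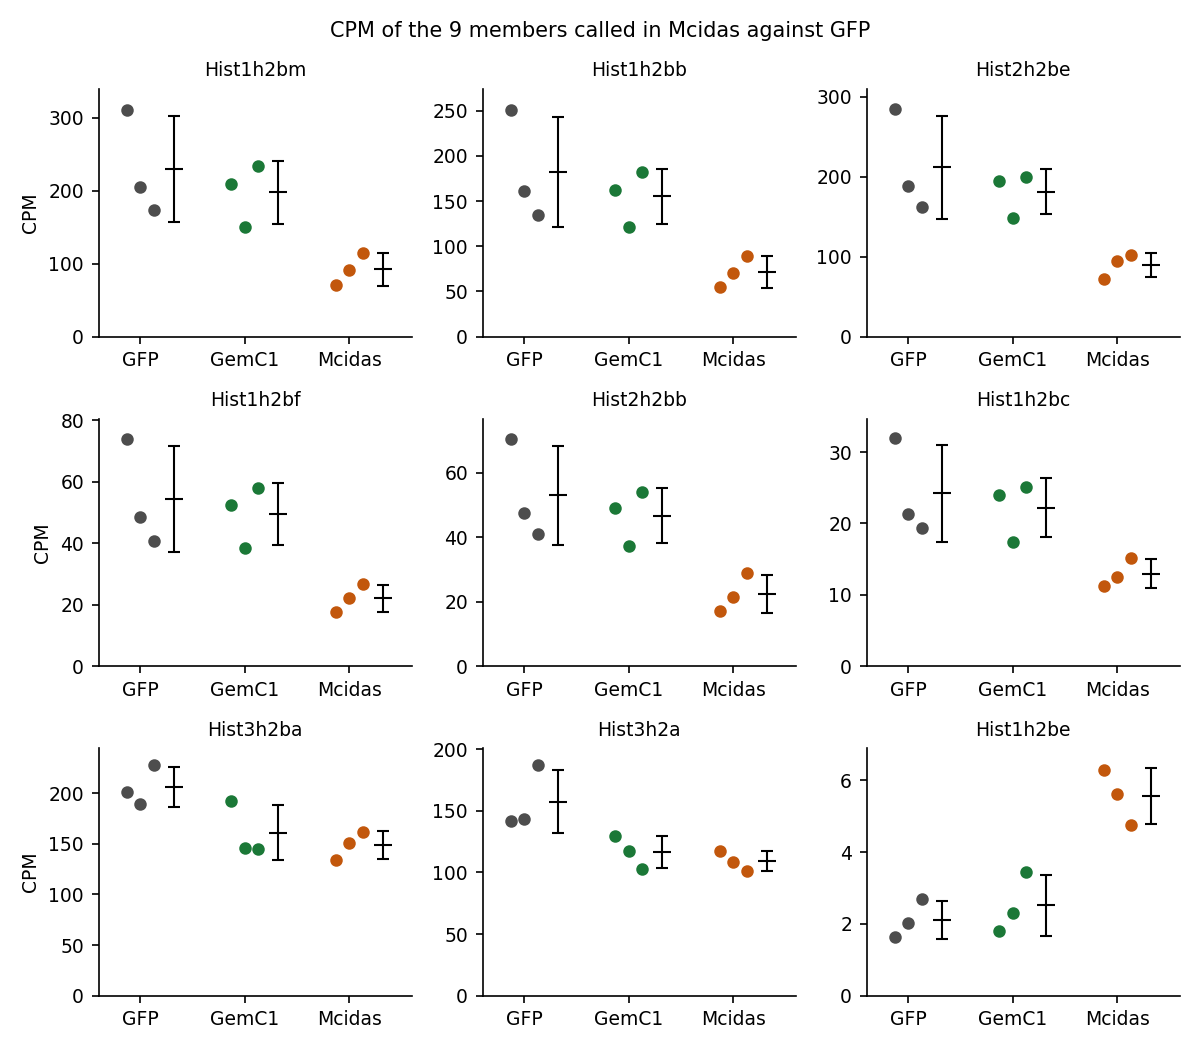
CPM (vertical axis, from 0) of the 9 members called in Mcidas against GFP, with a point for each library (replicates 1 to 3 from left to right) and the mean ± SD beside them. In the 6 panels of the upper rows the Mcidas points lie below all others, and in Hist1h2be they lie above.

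The remaining tested H2B genes, Hist1h2bg, Hist1h2bj, Hist1h2bk and Hist1h2bp, stood under 1 CPM and were not called. Hist1h2ac, an H2A gene with the most negative fold change of all members tested in Mcidas, stood at 0.288, 0.243 and 0.736 CPM there and at 1.35, 1.23 and 1.14 in GFP, a change of -1.58 ± 0.54 (adjusted p = 0.172). No H1, H3 or H4 gene was called. Summed over the class, H2B genes stood at 386, 469 and 547 CPM in Mcidas, 888, 664 and 904 in GemC1 and 1228, 865 and 805 in GFP, with means of 467 ± 80.6, 819 ± 134 and 966 ± 229. Summed H2A genes stood at 127 ± 7.41 CPM in Mcidas, 136 ± 13.1 in GemC1 and 175 ± 26.6 in GFP, and the libraries of both treated groups were below all GFP libraries. Summed H3 genes stood at 7.36 ± 0.35, 6.81 ± 1.23 and 8.18 ± 1.02 CPM in the same order.

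**Figure D4:**
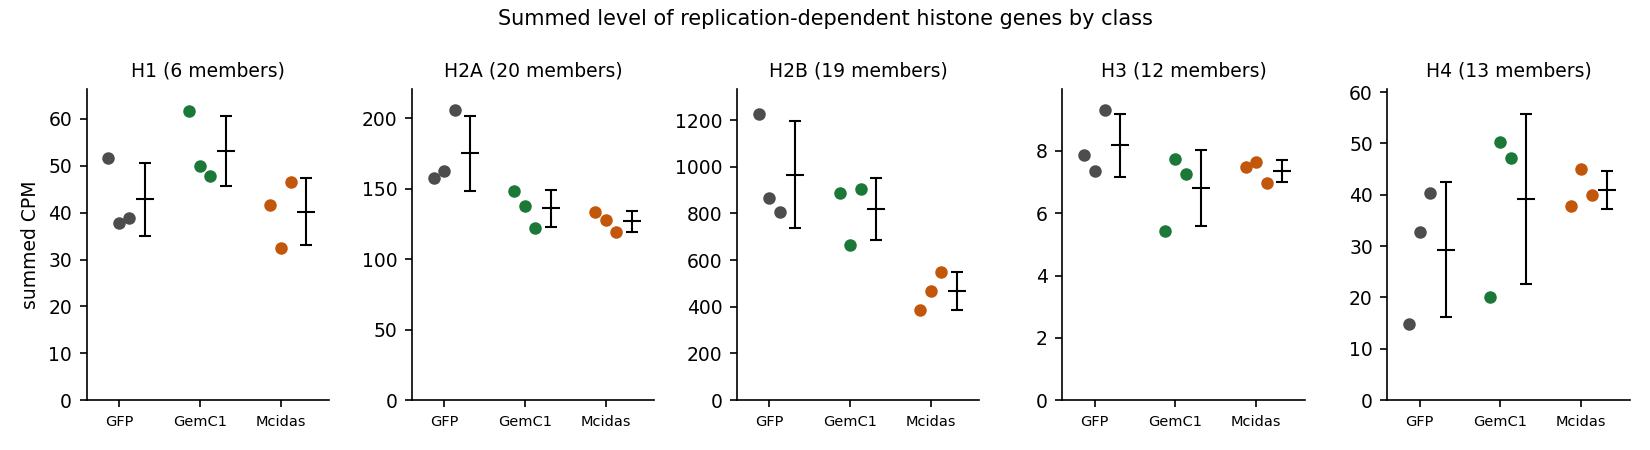
Summed CPM (vertical axis, from 0) of the members of each class in each library, with the mean ± SD of the 3 libraries beside the points. For H2B the Mcidas libraries, at 386 to 547 CPM, lie below all others. For H2A the GemC1 libraries, at 122 to 148 CPM, and the Mcidas libraries, at 119 to 134, lie below all GFP libraries, at 157 to 206. For H1, H3 and H4 the groups overlap.

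Hist1h4d held most of the mean summed H4 level in each group, 33.5 of 39.2 CPM in GemC1, 35.3 of 40.9 in Mcidas and 22.5 of 29.3 in GFP. In GFP replicate 1 Hist1h4d held 7.05 of 14.8 CPM. It stood at 15.3, 44.5 and 40.7 CPM in GemC1, 34.2, 38.7 and 32.9 in Mcidas and 7.05, 25.2 and 35.1 in GFP. GemC1 replicate 1 and GFP replicate 1 were low, and the groups overlapped. The change was 0.58 ± 0.54 in GemC1 and 0.65 ± 0.54 in Mcidas (adjusted p 0.619 and 0.736). The H2A gene Hist1h2ae was also lowest in these libraries, at 5.57 and 3.35 CPM beside 8.09 to 10.4 in the other 7. Hist1h4c, at a lower level, changed by 0.60 ± 0.71 in GemC1 (adjusted p = 0.706).

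In GemC1 against Mcidas, edgeR called 0 members, against 0.0511% of all genes, 0.0153% higher and 0.0358% lower. There were 9 members with an unadjusted p under 0.05, the smallest adjusted p was 0.118, and DESeq2 called 6 higher and 1 lower in GemC1. The 6 were Hist1h2bb, Hist1h2bc, Hist1h2bf, Hist1h2bm, Hist2h2bb and Hist2h2be, and the lower gene was Hist1h2be. The shares of all genes are those of edgeR calls, and none is given for an unadjusted p or for DESeq2. In edgeR the log2 difference was 1.10 ± 0.24 for Hist1h2bm (adjusted p = 0.136; 95% interval 0.58 to 1.63), 1.12 ± 0.24 for Hist1h2bb and 1.02 ± 0.20 for Hist2h2be, with every GemC1 library above every Mcidas library. The difference of Hist3h2ba was 0.11 ± 0.12, with a 95% interval from -0.15 to 0.38.

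Of these 6 H2B genes, 5 kept nearly fixed proportions while their level moved, and Hist1h2bc did so less. The set was chosen after its values were seen. Their summed level was 243, 311 and 378 CPM in Mcidas, 691, 513 and 753 in GemC1 and 1023, 671 and 571 in GFP, while the other H2B genes summed to 143, 158 and 169, to 197, 151 and 151, and to 205, 194 and 234 CPM. Hist1h2bm varied 4.42-fold over the 9 libraries. The count of Hist1h2bb relative to that of Hist1h2bm ran only from 0.773 to 0.811, with a coefficient of variation (CV) of 1.86%. For Hist1h2bf the ratio ran from 0.231 to 0.256 (CV 3.46%), for Hist2h2bb from 0.227 to 0.2498 (CV 3.23%) and for Hist2h2be from 0.855 to 1.04 (CV 6.57%). These genes lie on chromosomes 13 and 3, and their coding sequences differ as shown. Hist1h2bc varied more, from 0.103 to 0.159 (CV 15.5%), and its ratio in the Mcidas libraries, 0.131 to 0.159, was above that in all others, at most 0.116. By contrast the ratio of Hist3h2ba ran from 0.619 to 1.91 (CV 38.8%), that of Hist3h2a had a CV of 45.5% and that of Hist1h1c 45.6%. The 9 ratios share the count of Hist1h2bm and are given as a description. Whether reads of the H2B-GFP plasmid were among the counts of these genes was not tested. Without the 6 genes, 2 of 34 tested members were lower in Mcidas, and the median log2 fold change was -0.34.

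**Figure D5:**
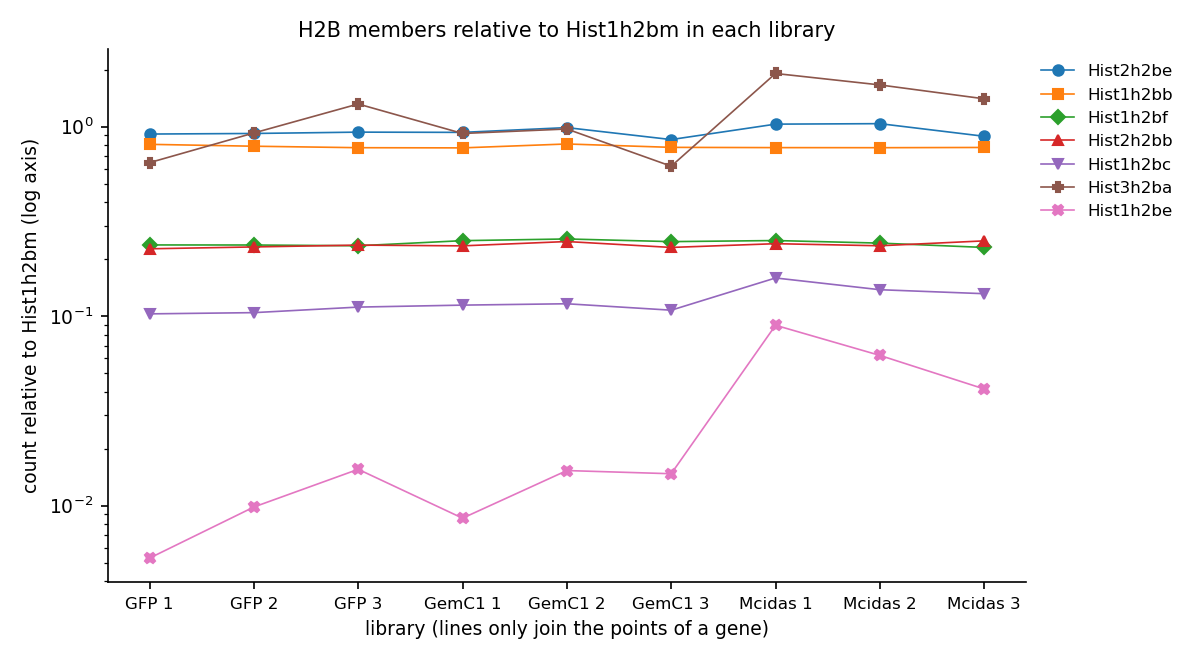
Count of 7 H2B genes relative to Hist1h2bm (log axis) in the 9 libraries. The lines of Hist1h2bb, Hist1h2bf and Hist2h2bb are nearly flat across GFP, GemC1 and Mcidas libraries, whereas Hist3h2ba and Hist1h2be are highest in the Mcidas libraries.

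The factors that act on histone genes and their mRNA were examined beside the members. Slbp, which binds the stem-loop and is needed for processing and translation of the mRNA, rose in both groups. It stood at 155, 155 and 143 CPM in GemC1, 192, 170 and 167 in Mcidas and 101, 92.1 and 81.4 in GFP, without overlap between either group and GFP. The log2 fold change was 0.72 ± 0.09 in GemC1 (adjusted p = 5.18e-04) and 0.95 ± 0.09 in Mcidas (adjusted p = 4.43e-05). It was the 1 gene of 17 on the list for the 3′ end that was called in either group. Lsm10 and Lsm11 of the U7 particle, and Zfp473, changed by 0.34 ± 0.14, -0.44 ± 0.15 and 0.25 ± 0.29 in GemC1 and by 0.18 ± 0.14, 0.26 ± 0.15 and -0.02 ± 0.29 in Mcidas, and were not called.

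Of the histone transcription list, 0 of 11 tested genes were called in either group by edgeR, 2 had an unadjusted p under 0.05 in each, and DESeq2 called 0 in GemC1 and 1 in Mcidas. Npat, the activator that binds at histone loci in S phase, stood at 46.7 to 53.8 CPM in GemC1, 55.1 to 70.1 in Mcidas and 56.2 to 60.4 in GFP. Hinfp, an activator of H4 genes, differed by 0.08 ± 0.11 and 0.04 ± 0.11, and Casp8ap2, a part of the histone locus body, by -0.22 ± 0.12 and 0.02 ± 0.12. Of the decay list, 0 of 12 tested genes were called in either group by edgeR, 3 had an unadjusted p under 0.05 in GemC1 and 0 in Mcidas, and DESeq2 called 1 in GemC1 and 0 in Mcidas.

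The list of histone genes outside the 70 members gave 1 call of 11 tested genes in each group. H2afx, which encodes the H2A.X variant phosphorylated at DNA breaks, stood at 241, 217 and 208 CPM in GemC1, 179, 221 and 262 in Mcidas and 166, 133 and 152 in GFP. Both groups were above all GFP libraries. It rose by 0.56 ± 0.13 (adjusted p = 0.0243) and 0.55 ± 0.13 (adjusted p = 0.0267). Of 16 alternatives, 4 lost the call in GemC1 and 6 that in Mcidas, among them in both groups the removal of GFP replicate 2 and that of GFP replicate 3 (adjusted p up to 0.111 and 0.134). H2afz, H3f3a and H3f3b differed by 0.22 ± 0.10, 0.03 ± 0.08 and -0.08 ± 0.11 in GemC1 and by 0.07 ± 0.10, 0.01 ± 0.09 and -0.24 ± 0.11 in Mcidas. H1f0, the linker histone of non-dividing cells, differed by -0.20 ± 0.10 and -0.37 ± 0.10 (adjusted p 0.290 and 0.0590). None of these 4 genes was called by edgeR, while DESeq2 called H1f0 lower in Mcidas (adjusted p = 0.0104).

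Of 25 histone chaperone genes, Hat1, an acetyltransferase of new H4, rose in GemC1 by 0.40 ± 0.10 (adjusted p = 0.0391) and Atrx fell by 0.31 on the log2 scale (SE 0.08, adjusted p = 0.0399). In Mcidas the FACT subunit Ssrp1 rose by 0.52 ± 0.08 (adjusted p = 0.00175) and Nap1l1 by 0.33 ± 0.08 (adjusted p = 0.0291). The call was lost in 7 of 16 alternatives for Hat1 (adjusted p up to 0.184), in 8 for Atrx (up to 0.196) and in 6 for Nap1l1 (up to 0.151), most of them removals of 1 library, and in 0 for Ssrp1. None of these 4 genes was called by edgeR in GemC1 against Mcidas, where DESeq2 called Atrx lower.

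Among 40 S phase genes, 4 rose in GemC1 and 7 in Mcidas by edgeR. DESeq2 also called 1 lower in each. Lig1, the ligase of lagging strands, rose by 0.51 in GemC1 (adjusted p = 0.00865) and by 0.996 in Mcidas (adjusted p = 3.82e-05), and Cdt1, a replication licensing factor, by 1.43 and 2.4991. Mcm2 and Pcna differed by 0.14 ± 0.10 and 0.22 ± 0.11 in GemC1 and by 0.26 ± 0.10 and 0.02 ± 0.11 in Mcidas, with no call. Of 30 genes of G2 and mitosis, 1 rose in GemC1 (Cdk1, 0.60, a call lost in 7 of 16 alternatives) and none was called by edgeR in Mcidas, where 4 had an unadjusted p under 0.05 and DESeq2 called 2 higher and 1 lower. Mki67 differed by -0.18 ± 0.15 and -0.16 ± 0.15. Cdkn1a, which encodes the cycle inhibitor p21, stood at 33.4 to 50.4 CPM in GemC1, 37.0 to 65.2 in Mcidas and 2.58 to 4.23 in GFP, and rose by 3.71 ± 0.25 and 3.9976 ± 0.25.

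Cell type markers moved as follows. Of 16 multiciliated markers, 13 rose in each group, with sums of 598 to 722 CPM in GemC1, 589 to 1081 in Mcidas and 85.1 to 97.6 in GFP. Of 15 microglia markers, 9 rose in GemC1 and 2 in Mcidas, with sums of 81.0 to 115, 49.2 to 72.8 and 33.2 to 48.0 CPM. Of 15 radial glia markers, edgeR called Ttyh1 higher in GemC1 and Hes5 lower in Mcidas. Their sums were 2461 to 2711 CPM in GemC1, above all GFP libraries (1695 to 2253), and 1757 to 2336 in Mcidas. In GemC1 the median log2 fold change of the list was 0.36, 8 of the 15 had an unadjusted p under 0.05, and DESeq2 called 4 higher and 1 lower. The 18 excitatory neuron markers had sums of 6666 to 7378 CPM in GemC1, 7308 to 8158 in Mcidas and 8054 to 9401 in GFP. Of 12 intermediate progenitor markers, Hes6 rose and Neurog2 fell in GemC1. No endothelial, pericyte, erythroid or interneuron marker was called by edgeR, while DESeq2 called 1 endothelial and 1 pericyte marker lower in GemC1, and no marker was at 0 in every library. The part of these shifts in the changes of H2B genes was not tested, and in sorted bulk RNA fewer cells of a type and less RNA per cell cannot be told apart.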

How the data were processed

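Raw read counts per Ensembl gene were analysed as deposited, 1 table for each of 9 libraries, with the unit read from whole-number values. Tools named, without a role, in the submitters' processing notes are STAR (2.5.2b), HTSeq (0.5.3) and DESeq2 (1.8.1). For counting mode, strand setting and multi-mapped reads the entry is: not given in the sources used here. Per the labels' protocols, 10 ng of RNA was amplified with SMART-Seq v4 and read for 75 bp after Nextera XT. Symbols and positions came from GENCODE M21 (GRCm38) and promoters from RefSeq (GRCm38.p6).

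The low-count filter was filterByExpr (counts of 10, totals of 15). Libraries were scaled by TMM and genes tested with edgeR 4.0.16 in R 4.3.3 (two-sided quasi-likelihood test, robust, all 9 libraries, group only), and a call needed a p below 0.05 after Benjamini-Hochberg adjustment. SE values derive from the F statistic. Of 70 members, 40 passed the filter and were tested. The other 30 had a mean of at most 0.300 CPM, so the counts cover tested members and not all members. The script was tested on simulated data.

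The members, lists and tests were chosen with earlier results of these data known. Named members are those called in any comparison, the 2 highest per class by CPM per kb, and the 3 largest and 3 smallest fold changes in each comparison with GFP. Replicates are not said to come from separate litters, and the p-values then reflect only how these samples vary. No replicate was a copy of another: chi-square divided by its degrees of freedom was 14.2 to 26.0. Alternatives were DESeq2 1.42.0 and its size factors, other filters, 2 groups only, the replicate number as a block, removal of Gmnc, Mcidas, mitochondrial and globin genes, and removal of each library. Floors cover counting error only. Calls on the excitatory neuron markers are not reported here.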

Additional observations from a re-analysis of the deposited data

How the results depend on the processing

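No called result changed direction under the alternatives run. In GemC1 against GFP, members called numbered 1 higher and 1 lower by DESeq2, 1 and 2 with no low-count filter, and 1 lower at a minimum of 1 CPM in 3 libraries; leaving out single libraries gave 0 to 1 in each direction and a median of -0.26 to 0.0508. In Mcidas against GFP, 3 members were lower with no low-count filter, and leaving out single libraries gave 5 to 8 lower, 0 to 1 higher and a median of -0.45 to -0.28. In GemC1 against Mcidas, DESeq2 called 6 higher and 1 lower, no filter gave 1 higher and a median of 0.15, and leaving out single libraries gave 0 called and a median of 0.0654 to 0.31. Over the pathway lists, DESeq2 called 7 higher in GemC1, 7 higher and 1 lower in Mcidas, and 2 higher and 2 lower in GemC1 against Mcidas. With no filter these lists gave 5 higher in GemC1, 1 lower in Mcidas, and 1 higher and 1 lower in GemC1 against Mcidas. With only the 2 groups compared, 0 were lower in GemC1. Leaving out single libraries gave 1 to 3 higher and 0 to 1 lower in GemC1, 2 to 4 higher and 0 to 1 lower in Mcidas. Apart from fewer samples or other genes tested, the cause was not tested.

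The replicate numbers are not said to pair the samples. In deviations from the group mean, same-numbered libraries of different groups correlated at -0.109 to 0.0391 and differently numbered ones at -0.0642 to 0.142. These values show no closer likeness of same-numbered libraries, but with 3 libraries per group they cannot exclude a shared litter or day. With the replicate block, pathway genes numbered 0 lower in GemC1 and 2 higher in Mcidas, and Hist3h2a and Hist3h2ba in Mcidas had an adjusted p of 0.0576 and 0.083.

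Summed CPM follows in the order GFP, GemC1, Mcidas. Without the member with the most counts in each class it was 789.8, 683 and 426 for all members, 22.8, 32.6 and 22.2 for H1, 17.8, 19.5 and 17.6 for H2A, 736.5, 621 and 375 for H2B, 5.87, 4.27 and 5.06 for H3 and 6.87, 5.65 and 5.66 for H4. In 2 alternatives chosen after seeing the data, it was 467, 401 and 372 for all members and 211, 166 and 157 for H2B without Hist1h2bb, Hist1h2bc, Hist1h2bf, Hist1h2bm, Hist2h2bb and Hist2h2be, and 3.58, 2.46 and 3.52 for H3 over members with at least 50% of windows at 1 place. A planned count of windows over the whole genome was not run.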
